A study of Mus musculus with 12 samples.

Results

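The RNA of sorted Purkinje cells (PCs) and ventricular myocytes (VMs) was read for 10 genes that mark leukocytes and, among them, macrophages: *Ptprc*, *Csf1r*, *Adgre1*, *Cd68*, *Cd74*, *Lyz2*, *Mrc1*, *C1qa*, *C1qb* and *C1qc*. Each symbol was matched to its Ensembl identifier without use of any measured value, and all 10 were among the 48526 genes listed for every library. The 10 genes themselves were chosen with earlier results of these data known. Hearts came from adult male mice, *Ncam-1* WT or *Ncam-1* KO, and mice of every group also carried the *Cntn2*-EGFP reporter, a BAC transgene that marks the conduction system. The reporter line was kept on CD1 and the *Ncam-1* KO line on C57BL/6, and KO animals lack *Ncam-1* in every cell, leukocytes included. Ventricles were digested, stained with 50 nM TMRM for 15 min, a dye of active mitochondria that picks out cardiomyocytes, and sorted into PCs (red and green) and VMs (red without green). WT PC, KO PC, WT VM and KO VM had 3 libraries each. No sort used a leukocyte marker, and what the sources state does not tell whether each library came from a separate heart, so p-values measure the spread between these libraries.

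Macrophages are the most numerous leukocytes of the healthy heart, lie between myocytes, and are found in numbers at the atrioventricular node of the conduction system. They take up debris and dying cells, depend on CSF1 receptor signalling and make the C1q proteins that start the classical complement cascade. Cardiomyocytes are not known as a major source of these transcripts, so in a sorted myocyte fraction they serve as a gauge of leukocyte RNA. In RNA pooled from many cells, fewer macrophages and less RNA per macrophage cannot be told apart.

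The members fall into 4 roles. *Ptprc* (CD45) is a surface phosphatase of nearly all leukocytes, *Csf1r* the receptor for the growth factors CSF1 and IL-34, and *Adgre1* (F4/80) an adhesion receptor of mature mouse macrophages. *Cd68* and *Lyz2* serve the lysosome, as a membrane glycoprotein and as the enzyme lysozyme, and *Mrc1* (CD206) is the mannose receptor of resident-type macrophages. *Cd74* chaperones MHC class II molecules and is also made by B cells and dendritic cells. *C1qa*, *C1qb* and *C1qc* encode the 3 chains of C1q and lie side by side on the minus strand of chromosome 4 in GRCm38, *C1qb* at 136880129 to 136886187, *C1qc* at 136889804 to 136893065 and *C1qa* at 136895917 to 136898803.

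*Lyz2*, *Mrc1*, *C1qb* and *C1qc*, the members that passed the adjusted test between PCs and VMs, have a RefSeq promoter window, and 1 stretch of each is shown because these genes rose together. The stretches read 5′ to 3′ on the gene's own strand (GRCm38.p6) and lie before the annotated start, with capitals on ACTTCC, the reverse complement of GGAAGT, a core that Ets factors such as PU.1 of the macrophage lineage can bind.
Lyz2 (chr10:117282340-117282399, minus strand): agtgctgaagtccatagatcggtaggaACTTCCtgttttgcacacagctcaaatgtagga
Mrc1 (chr2:14229176-14229235, plus strand): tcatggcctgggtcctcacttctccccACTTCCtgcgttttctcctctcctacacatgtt
C1qb (chr4:136886221-136886280, minus strand): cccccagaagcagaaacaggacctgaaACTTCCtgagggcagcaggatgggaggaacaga
C1qc (chr4:136893077-136893136, minus strand): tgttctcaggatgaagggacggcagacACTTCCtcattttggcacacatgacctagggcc
The motif starts 100 bases before the RefSeq start in *Lyz2*, 211 in *Mrc1*, 53 in *C1qb* and 195 in *C1qc*. It was chosen after these sequences had been read. On either strand it was in 19.7% of all 32851 windows (6485 windows, 250 bases before the start), and in those of 5 of the 6 members that have one, *Ptprc* being the fifth and *Cd68* lacking it. No window was at hand for *Csf1r*, *Adgre1*, *Cd74* and *C1qa*. A match is a description of letters and says nothing on what bound there.

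The authors deposited raw counts of read pairs per gene. Between 13883427 and 42505705 pairs were counted on genes per library, 79.0% to 91.3% of them on the mitochondrial genome, which left 1532393 to 6761356 counts for all other genes. WT PC replicate 2 stood apart, 63.9% of its read pairs having found no place in the genome (18.8% to 24.7% elsewhere), and 11847 genes with a count against 13571 to 18129. Several member results that rest on it are given without it as well. Levels per kb, the makeup of the member sum, and calls and sums of the macrophage, complement, fibroblast and endothelial lists include it. *Ncam1* itself, the targeted gene, had a normalized count of 56.5 ± 17.6 (SD, n = 3) in WT PCs and 0.644 ± 0.632 in KO PCs. *Cntn2* had 407 ± 153 in WT PCs and 2.93 ± 0.78 in WT VMs, and 180 ± 236 in KO PCs and 5.48 ± 3.17 in KO VMs. KO PC replicate 3 held 452, but KO PC replicates 1 and 2 at most 49.2, below the 237 of the lowest WT PC library. What this means for the comparisons with KO PCs was not tested. A normalized count is the count divided by the library's effective size (TMM) and multiplied by the geometric mean of these sizes over the 12 libraries.

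All 10 members had counts in WT PCs, KO PCs and WT VMs, and 9 of 10 in KO VMs, where *Adgre1* had none. Their levels were low. Per kb of the longest coding transcript, *Lyz2* was the highest member in each of the 4 groups, at a mean normalized count per kb of 226 in WT PCs, 138 in KO PCs, 48.0 in WT VMs and 28.8 in KO VMs. *C1qb* came next in every group, with 46.5 in WT PCs, 24.6 in KO PCs, 7.56 in WT VMs and 3.94 in KO VMs. In WT PCs *C1qc* (46.1) could not be set apart from *C1qb*, and *Mrc1* (18.2) and *Cd74* (14.1) followed. *Csf1r* (5.52), *Ptprc* (5.43), *Cd68* (3.62), *C1qa* (2.64) and *Adgre1* (2.52) made up the low end, with neighbours that did not differ beyond the spread between libraries.

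**Figure D1:**
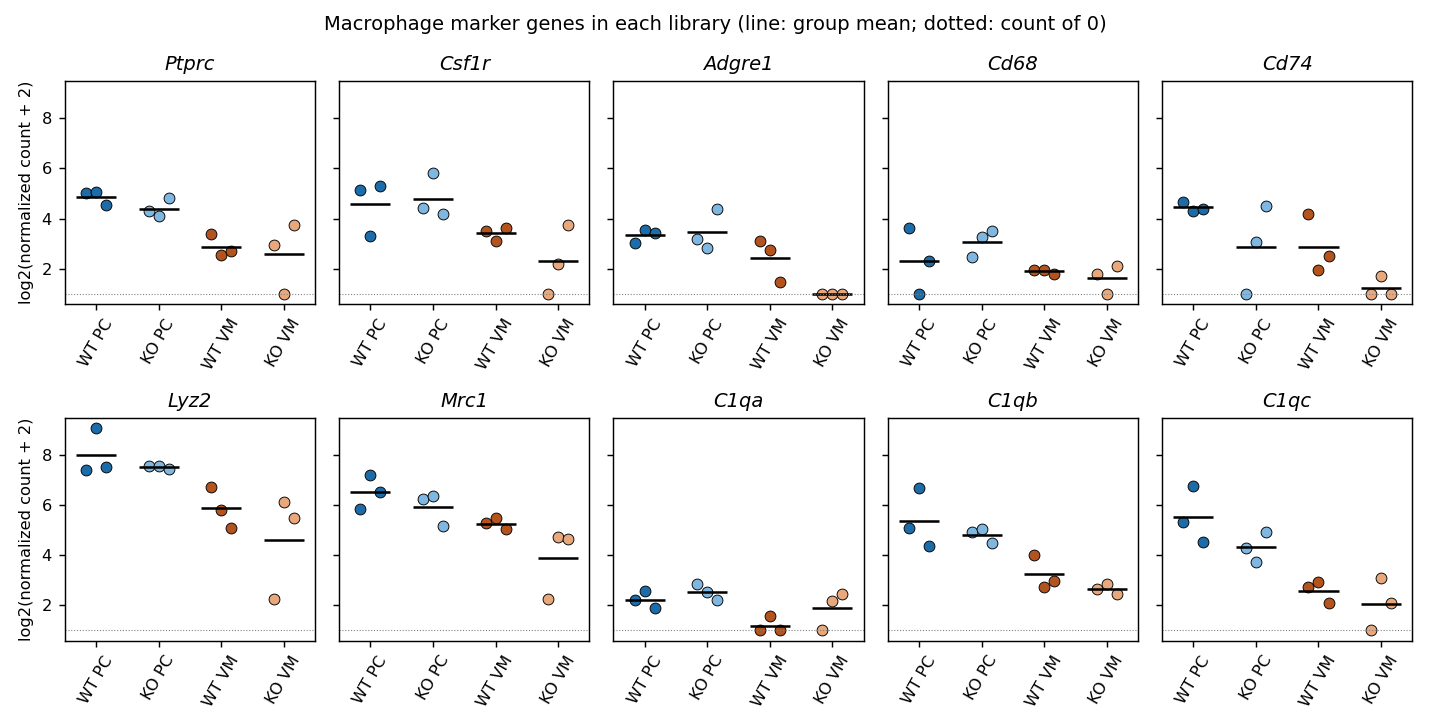
Each panel plots 1 gene, with log2(normalized count + 2) on the y axis and the 4 groups on the x axis. Points are libraries in replicate order, black lines are group means and the dotted line is a count of 0. *Lyz2*, *C1qb*, *C1qc* and *Ptprc* have all 6 PC libraries above all 6 VM libraries, and *Adgre1* sits at 0 in the 3 KO VM libraries.

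*Lyz2*, *Mrc1*, *C1qb* and *C1qc* rose in PCs over VMs over both genotypes, 6 libraries against 6. With edgeR's quasi-likelihood test and p-values adjusted after Benjamini and Hochberg, 4 of the 8 members that passed the filter (a mean normalized count above 5) were called, all 4 higher in PCs. Of all 11323 genes tested, 1.46% were called higher. Another 4 members were tested and not called, and *Cd68* and *C1qa* were too low to be tested. Since the filter takes the mean over all libraries of a comparison, a low gene can pass it through its higher group alone. The question behind the comparison is how much leukocyte RNA each sorted fraction held.

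*C1qc* had the largest change of the 4, with normalized counts of 38.4, 107 and 20.8 in WT PCs (replicates 1 to 3), 17.6, 11.4 and 28.1 in KO PCs, 4.69, 5.65 and 2.22 in WT VMs and 0, 6.42 and 2.32 in KO VMs. The highest VM library lay below the lowest PC library. Its means were 4.18 in WT VMs and 2.91 in KO VMs, under the filter's 5, so *C1qc* passed the filter through PCs, which favours a positive change. PCs exceeded VMs by 3.17 on the log2 scale (SE 0.583, 8.99-fold, adjusted p = 0.0125). *C1qb*, its partner chain, had 31.8, 101 and 18.5 in WT PCs, 28.1, 31.6 and 20.7 in KO PCs, 14.1, 4.71 and 5.92 in WT VMs and 4.24, 5.14 and 3.47 in KO VMs. The fractions again did not overlap, and the log2 fold change was 2.58 (SE 0.485, 5.98-fold, adjusted p = 0.0139).

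*Lyz2*, the lysozyme of macrophages, monocytes and neutrophils, had normalized counts of 169, 542 and 180 in WT PCs, 188, 186 and 172 in KO PCs, 104, 53.6 and 31.8 in WT VMs and 2.83, 68.1 and 42.8 in KO VMs. Replicate 2 of WT PC was the highest by far and replicate 1 of KO VM the lowest, while the other 5 PC libraries lay between 169 and 188. PCs were higher by 2.23 on the log2 scale (SE 0.449, 4.69-fold, adjusted p = 0.0213), without overlap. *Mrc1*, the mannose receptor, had 55.8, 146 and 91.3 in WT PCs, 73.8, 80.8 and 34.1 in KO PCs, 36.6, 42.4 and 31.1 in WT VMs and 2.83, 24.4 and 23.2 in KO VMs. Its log2 fold change was the smallest of the called members, 1.62 (SE 0.384, 3.08-fold, adjusted p = 0.0494), and the fractions overlapped through KO PC replicate 3.

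The receptors did not pass the adjustment. *Ptprc*, the pan-leukocyte marker, had normalized counts of 30.1, 31.2 and 21.4 in WT PCs, 17.6, 15.2 and 26.1 in KO PCs, 8.44, 3.76 and 4.44 in WT VMs and 5.66, 0 and 11.6 in KO VMs. All 6 PC libraries exceeded all 6 VM libraries, with a log2 fold change of 2.02 (SE 0.529, adjusted p = 0.0748). *Csf1r* had 33.1, 7.80 and 36.98 in WT PCs, 19.3, 54.3 and 16.04 in KO PCs, 9.38, 6.59 and 10.4 in WT VMs and 0, 2.57 and 11.6 in KO VMs. Its fractions overlapped because of WT PC replicate 2, which held only 4 counts, and its log2 fold change was 2.09 (SE 0.582, adjusted p = 0.0970). A stretch of 873 exon bases of *Csf1r* is also exon of *Hmgxb3* on the other strand, a gene with up to 100 counts, and the strand setting of the counting is not given in the sources used here.

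*Adgre1*, the F4/80 antigen, had normalized counts of 6.10, 9.75 and 8.67 in WT PCs, 7.03, 5.05 and 18.7 in KO PCs, 6.56, 4.71 and 0.740 in WT VMs and 0 in each KO VM library, where a count of 0 allows up to 3.47 to 4.24 normalized counts per library. Its fitted log2 fold change over both genotypes depends on those zeros and missed the adjustment (adjusted p = 0.0604). Taking 3 counts per KO VM library as the floor, the mean of KO PCs was 2.66 times that floor, its bound. This mean rested on KO PC replicate 3, which held 28 of the 36 *Adgre1* counts in KO PCs, while replicates 1 and 2 held 4 each. *Cd74* had 23.1, 17.6 and 19.1 in WT PCs, 0, 6.31 and 20.7 in KO PCs, 15.9, 1.88 and 3.70 in WT VMs and 0, 1.28 and 0 in KO VMs. KO PCs ranged from none to the WT level, and over both genotypes its adjusted p was 0.129 with a log2 fold change of 2.84 (SE 0.859).

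*Cd68* and *C1qa* stayed near the floor of detection. *Cd68* held 24, 0 and 5 counts in the WT PC libraries, 2, 6 and 14 in KO PCs, 2, 2 and 2 in WT VMs and 1, 0 and 2 in KO VMs. The pooled counts of WT PCs, per effective size, were 3.71 times those of WT VMs (exact 95% interval 1.51 to 10.9, counting error only), and in KO the ratio was 6.03 (1.81 to 31.5). WT PC replicate 1 held 24 of the 29 counts in WT PCs, and without it the ratio was 1.29 (0.312 to 5.09). Without KO VM replicate 3 the KO ratio was 11.4 (1.85 to 472). *C1qa* held 6, 2 and 3 counts in the WT PC libraries, 3, 3 and 4 in KO PCs, 0, 1 and 0 in WT VMs and 0, 2 and 3 in KO VMs, with a pooled ratio of 8.44 (1.23 to 363) in WT and 1.64 (0.512 to 6.13) in KO. Without WT VM replicate 3 the WT ratio of *C1qa* was 5.16 (0.750 to 222), without WT VM replicate 2, the only WT VM library with a count, none could be formed, and without KO VM replicate 3 the KO ratio was 2.60 (0.554 to 24.4).

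Two-sided exact permutation tests on log2(normalized count + 2), with the 400 relabellings that keep each genotype's libraries together, gave the smallest p they can give, 0.005, for *Ptprc*, *Lyz2*, *Mrc1*, *C1qb* and *C1qc*. The exact p was 0.01 for *Adgre1* and *C1qa*, 0.015 for *Csf1r*, 0.035 for *Cd74* and 0.08 for *Cd68*, unadjusted over the 10 genes. PCs and VMs did not overlap in 4 of the 10 members (*Ptprc*, *Lyz2*, *C1qb* and *C1qc*), against 1.4% of all genes tested for non-overlap in this direction. The median log2 fold change of the 8 fitted members was 2.40 (2.16 with *Adgre1* at its bound), and that of all genes 0.0176. The 8 include members that passed the filter mainly through PCs. Over all 10 members, without a filter, the median difference in mean log2(normalized count + 2) was 1.75.

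The count of calls leaned on single libraries. Without WT PC replicate 2, the library with many unaligned pairs, 7 of 8 tested members were called, *Ptprc*, *Csf1r* and *Adgre1* among them. It fell to 0 without KO VM replicate 3 or WT VM replicate 3, to 1 (*C1qc*) without WT VM replicate 2, and to 2 without KO PC replicate 1, KO PC replicate 2 or KO VM replicate 1. In each of these 7 fits all 8 tested members had an unadjusted p under 0.05, as in the fit of all 12 libraries, where 8.54% of all genes were higher at that threshold. The log2 fold change of *C1qc* stayed between 2.75 and 3.76 over the 12 omissions, that of *C1qb* between 2.11 and 2.88, that of *Lyz2* between 1.86 and 2.58 and that of *Mrc1* between 1.35 and 1.80. DESeq2's Wald test called all 8. For DESeq2 and for the fits with a library left out, the share of all genes called is not reported here. These counts therefore cannot be set against that of other genes. The call of *Mrc1* was lost, and those of *Lyz2*, *C1qb* and *C1qc* kept, with a replicate block, without mitochondrial genes and after thinning all libraries to the smallest.

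**Figure D2:**
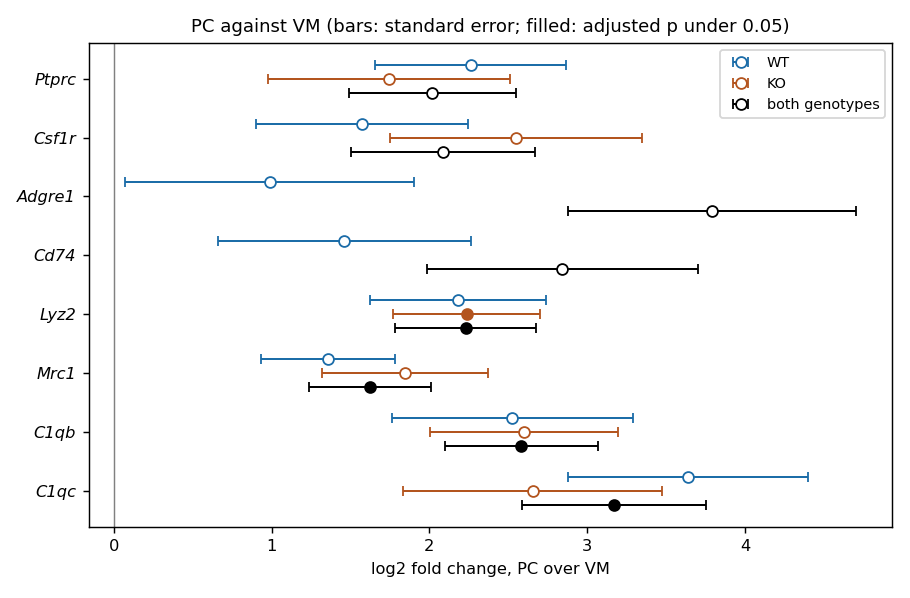
The log2 fold change of PC over VM on the x axis, for the members that passed the filter, in WT, in KO and over both genotypes (points) with standard errors (bars). Filled points have an adjusted p under 0.05: *Lyz2*, *Mrc1*, *C1qb* and *C1qc* over both genotypes and *Lyz2* in KO. Every point lies above 0.

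In WT mice alone, 3 libraries against 3, no member passed the adjustment, and 0.11% of all 11822 genes tested were called higher in PCs. At an unadjusted p under 0.05, 6 of the 8 tested members were higher in PCs, against 5.14% of all genes. *C1qc* had the largest log2 fold change, 3.64 (SE 0.759, adjusted p = 0.237), followed by *C1qb* at 2.53 (SE 0.761), *Ptprc* at 2.26 (SE 0.604) and *Lyz2* at 2.18 (SE 0.559). Groups did not overlap in 7 of the 10 members (*Ptprc*, *Cd74*, *Lyz2*, *Mrc1* and the 3 C1q chains), of which *C1qa* was not tested. Of the 11822 genes tested, 7.29% were higher in PCs without overlap. With 3 libraries a group the exact permutation p cannot go below 0.1. *Csf1r*, *Adgre1* and *Cd68* overlapped. Leaving out WT PC replicate 2 led to 1 call, *C1qc*, and lowered its log2 fold change to 2.82, that of *C1qb* to 1.61, that of *Lyz2* to 1.47 and that of *Ptprc* to 2.20. With all 6 libraries, DESeq2 called *C1qc*, *Lyz2* and *Ptprc*, and its share of all genes called is not reported here.

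In KO mice alone *Lyz2* was called, at a log2 fold change of 2.23 (SE 0.463, 4.71-fold, adjusted p = 0.0297), 1 of 6 members that passed the filter, against 0.863% of all 10779 genes called higher. All 6 had an unadjusted p under 0.05 and were higher in PCs, against 7.11% of all genes. Mean normalized counts in KO VMs were 2.91 for *C1qc*, 4.28 for *C1qb* and 4.72 for *Csf1r*, under the filter's 5. These genes passed it through KO PCs, which favours a higher PC value. On the log2 scale *C1qc* stood at 2.65 (SE 0.819), *C1qb* at 2.60 (SE 0.597, adjusted p = 0.0548), *Csf1r* at 2.55 (SE 0.800), *Mrc1* at 1.84 (SE 0.525) and *Ptprc* at 1.74 (SE 0.767). KO PCs lay above KO VMs without overlap in 8 of the 10 members, all but *Cd74* and *C1qa*. Of the 10779 genes tested, 8.66% did so, but *Adgre1* and *Cd68*, among the 8, were not tested. For *Cd68*, KO PC replicate 1 and KO VM replicate 3 both held 2 counts, so its gap came from library size alone. The call of *Lyz2* was lost without KO PC replicate 1, KO PC replicate 2 or KO VM replicate 3, which left no call, and 3 members (*Lyz2*, *Mrc1* and *C1qb*) were called without KO PC replicate 3. On these 4 omissions, tested members at an unadjusted p under 0.05 numbered 7 of 7, 5 of 6, 7 of 7 and 5 of 6. With all 6 libraries, DESeq2 called *C1qb* in place of *Lyz2*. Shares of all genes for these omissions and for DESeq2 are not reported here. On the log2(normalized count + 2) scale, which needs no filter, the mean of all 10 members was higher in PCs in both genotypes.

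Summed over the 10 genes, PCs held more of these counts than VMs in every library. As counts per 1000000 counts outside the mitochondrial genome (CPM), the sum was 136, 324 and 147 in WT PCs (mean 202 ± 105, SD, n = 3), 130.5, 144 and 122 in KO PCs (132 ± 10.9), 66.8, 42.9 and 31.1 in WT VMs (46.9 ± 18.2) and 5.67, 37.2 and 33.2 in KO VMs (25.4 ± 17.2). The lowest PC library was thus above the highest VM library. WT PC replicate 2 carried the highest sum, and KO VM replicate 1, with 12 counts over all 10 genes, the lowest (exact 95% Poisson interval 2.93 to 9.91 CPM). The ratio of the PC mean to the VM mean was 4.31 in WT, 3.01 without WT PC replicate 2, and 5.21 in KO, 3.75 without KO VM replicate 1.

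**Figure D3:**
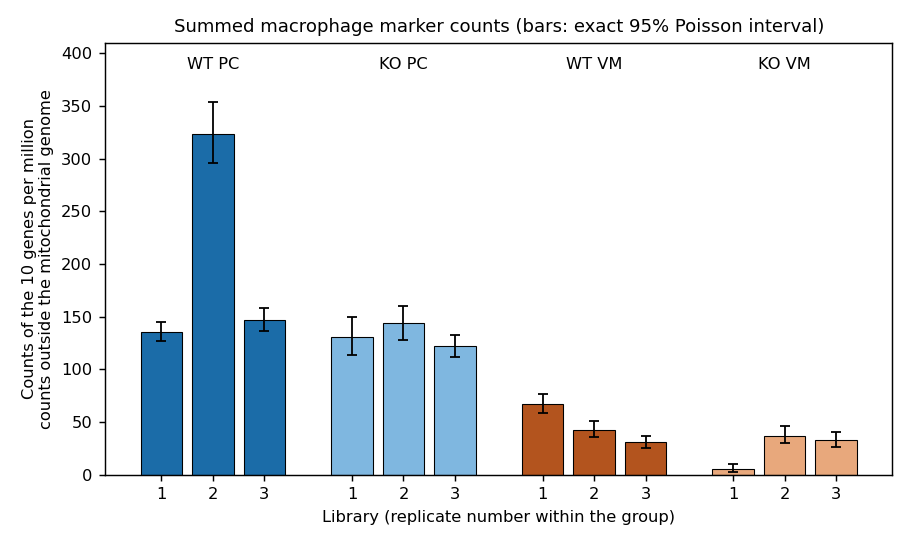
Counts of the 10 genes per 1000000 counts outside the mitochondrial genome (CPM, y axis) for each library (x axis, replicate number within the group), with the exact 95% Poisson interval as bars. PC libraries lie between 122 and 324 and VM libraries between 5.67 and 66.8, and WT PC replicate 2 is the tallest bar.

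*Lyz2* took the largest share of this sum in each of the 4 groups, 46.3% of the 2109 member counts in WT PCs, 49.0% of 1045 in KO PCs, 44.6% of 473 in WT VMs and 49.7% of 185 in KO VMs. *Mrc1* took 17.1% in WT PCs (Wilson 95% interval 15.6% to 18.8%) and 26.6% in WT VMs (22.9% to 30.8%), 15.0% in KO PCs (12.99% to 17.3%) and 22.2% in KO VMs (16.8% to 28.7%). *C1qc* took 8.49% in WT PCs (7.37% to 9.75%) and 2.96% in WT VMs (1.77% to 4.91%), 5.84% in KO PCs (4.57% to 7.43%) and 3.78% in KO VMs (1.84% to 7.60%), where the intervals overlapped. These intervals cover counting error only, and the difference in makeup was not tested over libraries.

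The 3 chains of C1q were not counted alike, although the protein holds them in equal numbers. Over all 12 libraries *C1qb* had 267 counts and *C1qc* 261, whereas *C1qa* had 27, or 4.86% of the 3 genes' counts. Per kb of transcript the sums were 245 for *C1qb*, 217 for *C1qc* and 26.0 for *C1qa*. *C1qa* was also the lowest of the 3 in WT PCs (11 counts, against 157 for *C1qb* and 179 for *C1qc*) and in KO PCs (10, against 72 and 61). None of the 50-base stretches of *C1qa*, *C1qb* or *C1qc* transcripts is shared with another gene, so counts lost to a second copy are not seen in the annotation, and why *C1qa* was low was not tested.

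*Lyz2* shares 15.4% of its 50-base stretches with *Lyz1*, its neighbour and close copy, and pairs that align to both are usually left out by the counter. *Lyz1* itself held at most 3 counts in a library. *Csf1r* shares 14.3% of its stretches, all with *Hmgxb3*, and *Ptprc* 0.0754%, while the other 7 members share none.

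*Ncam-1* KO and WT PCs did not differ detectably in these genes. None of the 9 tested members passed edgeR's adjusted test, nor did any of the 11754 genes tested (0%), and none of the 9 reached an unadjusted p under 0.05, against 3.22% of all genes. DESeq2 likewise called none, with 1 member at an unadjusted p under 0.05. In edgeR's fit even *Ncam1*, the targeted gene, was not called (log2 fold change -6.13, SE 0.827, adjusted p = 0.255). The lack of calls among members thus says little on changes smaller than that. Fitted changes were negative for 6 members and positive for *Csf1r* (0.15), *Adgre1* (0.40) and *Cd68* (0.49), with a median of -0.63 on the log2 scale. *C1qc* had the most negative one, -1.46 (SE 0.687, adjusted p = 0.993), followed by *Cd74* at -1.03 (SE 0.979), *C1qb* at -0.86 (SE 0.660), *Lyz2* at -0.68 (SE 0.426), *Mrc1* at -0.63 (SE 0.479) and *Ptprc* at -0.46 (SE 0.569). KO and WT PCs overlapped in all 10 members, while 4.82% of all genes tested were higher and 4.7% lower in KO PCs without overlap.

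Replicate 2 of WT PC bears on several of these values. It held the highest normalized counts of all 12 libraries for *Lyz2* (542), *Mrc1* (146), *C1qb* (101) and *C1qc* (107), but 7.80 for *Csf1r* and 0 for *Cd68*. Without it the log2 fold change of *Lyz2* turned from -0.68 to 0.05, that of *C1qb* from -0.86 to 0.06 and that of *Csf1r* from 0.15 to -0.25, and that of *C1qc* was -0.61. The 6 hemoglobin and related genes of the red blood cell list summed to 187 and 1059 CPM in WT PC replicates 1 and 2, and to 3.39 in WT PC replicate 3, which lay within the 1.81 to 5.14 of the KO PCs. All 4 of them that were tested between KO and WT PCs had an unadjusted p under 0.05 and none was called (adjusted p = 0.993). Their part in the member values was not tested.

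In VMs 5 members could be tested between KO and WT, and none was called, against 0.0373% of all 10737 genes in either direction. *Mrc1* was the only member with an unadjusted p under 0.05 and had a fitted log2 fold change of -1.09 in KO VMs (SE 0.462, adjusted p = 0.931), where 3.25% of all genes were lower at that threshold. Its KO VM libraries (2.83, 24.4 and 23.2) lay below the WT VM libraries (31.1 to 42.4). Groups did not overlap in 3 of the 10 members, *Mrc1*, *Adgre1* and *Cd74*, all lower in KO VMs. Of the 10737 genes tested, 5.03% were lower in KO VMs without overlap. *Adgre1* and *Cd74* were too low to be tested, so the 3 cannot be set against that share. *Adgre1* held 7, 5 and 1 counts in WT VMs and none in KO VMs, and *Cd74* 17, 2 and 5 in WT VMs against 0, 1 and 0. The mean of log2(normalized count + 2) was lower in KO VMs for 9 of 10 members, all but *C1qa*, and KO VM replicate 1 held the least of *Lyz2* and *Mrc1*. Without that library or WT VM replicate 2 the unadjusted p of *Mrc1* was above 0.05, and over the 6 omissions its log2 fold change ran from -1.41 to -0.63.

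**Figure D4:**
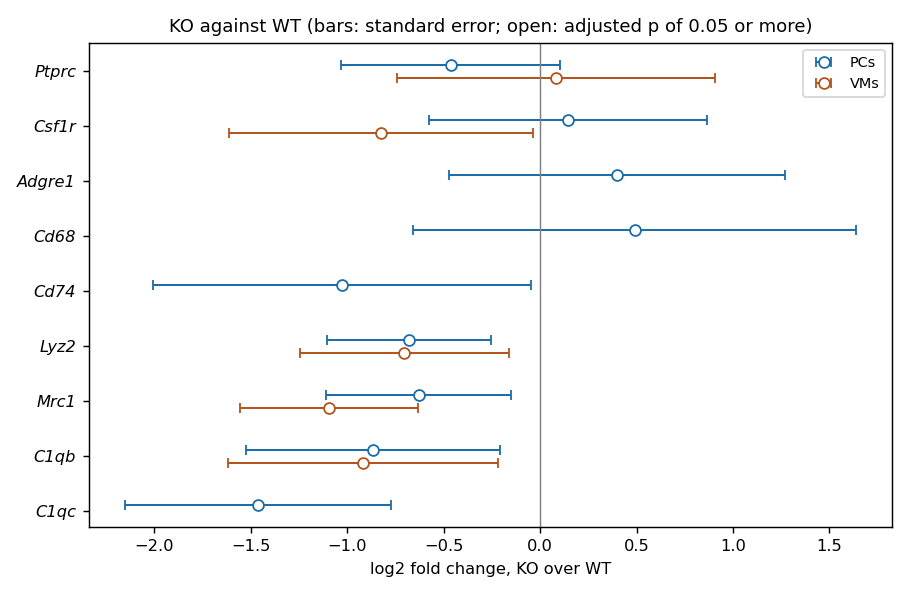
The log2 fold change of KO over WT on the x axis, for the members that passed the filter in PCs and in VMs (points) with standard errors (bars). All points are open (adjusted p of 0.05 or more), and all but *C1qc* in PCs and *Mrc1* in VMs lie within 2 standard errors of 0.

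Nor did the effect of genotype differ detectably between the fractions. No member was called by the interaction term, and no gene of the 11323 was (0%). *Adgre1* alone had an unadjusted p under 0.05 (adjusted p = 0.999), against 2.9% of all genes, which rests on its zero counts in KO VMs. For *Lyz2* the difference was 0.03 (SE 0.840), for *C1qb* 0.05 (SE 0.762), for *Mrc1* 0.47 (SE 0.756) and for *C1qc* -1.005 (SE 1.23) on the log2 scale. Standard errors of this size leave room for differences of more than 2-fold either way.

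Macrophage genes outside the list were read in the same way. Over both genotypes, 1.46% of all 11323 genes tested were called higher in PCs. Of 25 further macrophage genes, 11 were tested over both genotypes and 2 rose in PCs: *Tyrobp*, the adaptor of activating myeloid receptors, by 3.21 on the log2 scale (SE 0.747, adjusted p = 0.0463), and *F13a1*, the coagulation factor subunit of resident macrophages, by 2.30 (SE 0.519, adjusted p = 0.0398). All 11 had a fitted log2 fold change above 0, with a median of 2.08, against 51.9% of all genes tested. The filter favours such a result, since a gene can pass it through PCs alone. *Tyrobp* did so, with mean normalized counts of 2.93 in WT VMs and 0.428 in KO VMs, while *F13a1* had 22.5 and 13.3. Among genes too low to be tested, *Itgam* had 2.12 in WT PCs against 3.56 in WT VMs, but 3.48 in KO PCs against 0.856 in KO VMs. The sum of all 25 genes ran from 142 to 416 CPM in WT PCs, 96.7 to 167 in KO PCs, 61.5 to 81.4 in WT VMs and 37.8 to 63.2 in KO VMs.

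Among 15 complement components and regulators, 9 were tested and 2 rose in PCs, against 1.46% of all genes tested. Among them *Serping1* (C1 inhibitor), which fibroblasts and endothelial cells also make, rose by 2.72 (SE 0.507, adjusted p = 0.0136). Of 6 MHC class II genes, whose products *Cd74* chaperones, 2 were tested and none was called in edgeR, with *H2-Aa* at 2.61 (SE 0.691, adjusted p = 0.0776) and *H2-Ab1* at 1.62 (SE 0.844, adjusted p = 0.500), 1 of them under an unadjusted p of 0.05. Of 12 macrophage growth factors and chemokines, 2 were tested and neither changed detectably. *Csf1*, the ligand of the CSF1 receptor, had normalized counts of 104 ± 40.3 in WT PCs, 114 ± 14.3 in KO PCs, 133 ± 9.88 in WT VMs and 124 ± 35.7 in KO VMs (log2 fold change of PC over VM -0.23, SE 0.213).

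Markers of other leukocytes ranged from none to 92 counts in a library. Of 7 neutrophil genes, 6 held at most 3 counts in any library, *Ly6g*, *Retnlg*, *Mpo* and *Elane* none at all (named after their values were seen), and *S100a9* 10 counts in 1 library. All 5 NK cell genes held at most 1 count per library. Of 8 T cell genes, 6 held at most 3 counts in any library and *Cd3g*, *Cd4* and *Cd2* (named after their values were seen) none, while *Cd28* held 2 to 70 counts and did not rise in PCs (log2 fold change -0.75). Of 5 monocyte genes none could be tested, and *Ccr2* reached 18 counts in WT PC replicate 3. Of 6 B cell genes, 3 held at most 3 counts in any library. *Ms4a1* held 92 counts in WT PC replicate 2, 9 in WT PC replicate 1 and none elsewhere, and *Blk* up to 30 counts, with a log2 fold change of PC over VM of 0.31 (SE 0.584). Of 5 mast cell genes, *Kit* alone exceeded 3 counts in a library, with up to 17.

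Genes of fibroblasts and of vessels were also higher in PCs. The counts below stand beside the 1.46% of all 11323 genes tested that were called higher in PCs. Of 8 fibroblast genes tested, 6 rose (median log2 fold change 2.03), among them *Lum*, *Dcn* and *Gsn*, and of 12 endothelial genes 5 rose (median 1.61), *Pecam1*, *Cdh5*, *Fabp4*, *Eng* and *Ly6c1*. Of 8 genes of smooth muscle cells and pericytes 3 rose (*Rgs5*, *Pdgfrb* and *Kcnj8*, median 1.32). The fibroblast sum ran from 281 to 777 CPM in PCs and from 29.3 to 165 in VMs, and the endothelial sum from 323 to 1080 in PCs and from 40.2 to 297 in VMs. KO VM replicate 1 was the lowest library for the members, the fibroblast genes and the endothelial genes alike. All Schwann cell genes were too low to be tested. In edgeR the 11 cardiomyocyte genes had none called (median -0.12), 2 lower in PCs at an unadjusted p under 0.05, and of 9 Purkinje cell genes 5 rose, *Cntn2*, *Gja5*, *Scn10a*, *Etv1* and *Sema3a*. Of 6 red blood cell genes 4 were tested and none was called or had an unadjusted p under 0.05. Whether the rise of the members differs in size from that of the other lists was not tested.

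**Figure D5:**
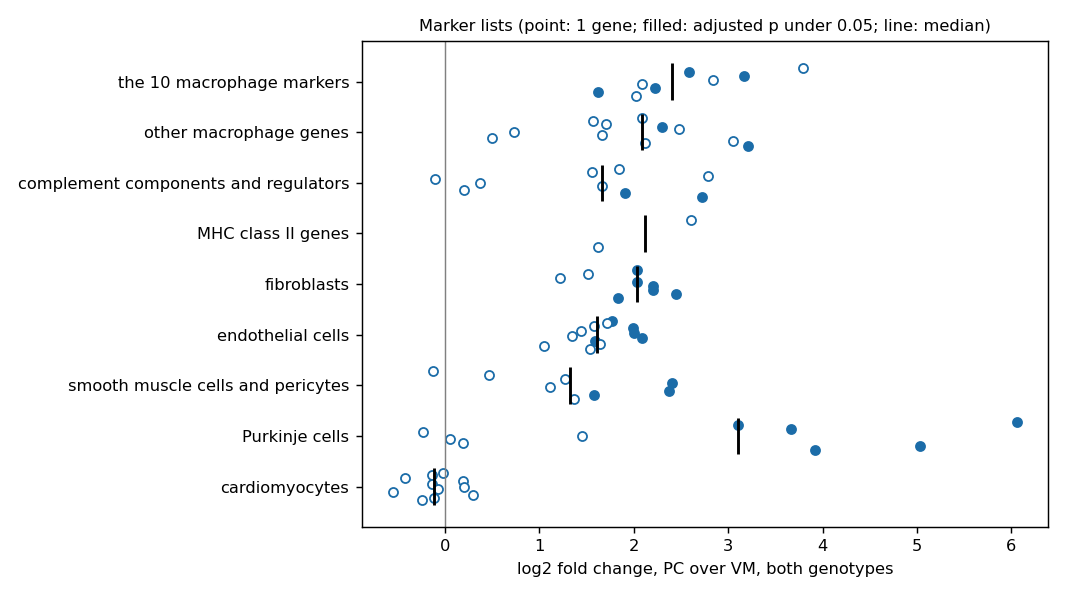
The log2 fold change of PC over VM over both genotypes (x axis) for each tested gene of 9 lists, with the median as a line and filled points for an adjusted p under 0.05. The medians of the macrophage, fibroblast, endothelial and complement lists lie between 1.61 and 2.40, and that of the cardiomyocyte list at -0.12.

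Genes outside the list were ranked by how closely their levels followed C1q across the 12 libraries. The measure was Pearson's r with the mean standardized log2(normalized count + 2) of the 3 chains, over 8096 genes with a mean normalized count of at least 20. The 8 highest were *Lum* (0.978), *Sparc* (0.969), *Serping1* (0.964), *Dcn* (0.9504), *Gsn* (0.945), *Kcnj8* (0.942), *Arhgef15* (0.938) and *Pea15a* (0.938). Of these, *Lum*, *Dcn* and *Gsn* belong to the fibroblast list, *Kcnj8* to that of smooth muscle cells and pericytes and *Serping1* to that of complement, and the other 3 to none. *Lum*, a small proteoglycan of collagen matrix, also stood at 0.953 among the 6 PC libraries and 0.840 among the 6 VM libraries. Without WT PC replicate 2 the 8 values ran from 0.917 to 0.969 over 11 libraries. Among the 5 PC libraries left they spread widely. *Serping1* stood at 0.883, *Kcnj8* at 0.733, *Dcn* at 0.707, *Lum* at 0.665 and *Arhgef15* at 0.631, but *Sparc* at 0.221, *Gsn* at 0.061 and *Pea15a* at -0.387. The 12 points share the split into PCs and VMs, so these values describe the libraries.

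The other members followed C1q unequally. *Lyz2* had an r of 0.898, *Mrc1* 0.805, *Ptprc* 0.716, *Adgre1* 0.691, *Csf1r* 0.574, *Cd74* 0.499 and *Cd68* 0.280. Among the 6 PC libraries *Lyz2* stayed at 0.904, whereas *Csf1r* was at -0.758 and *Cd68* at -0.672, where WT PC replicate 2 combines the highest C1q with 4 and 0 counts of these genes. These values within PCs rested on that library: among the other 5 PC libraries *Lyz2* was at -0.015, *Csf1r* at -0.271 and *Cd68* at 0.396. Over the 11 libraries left *Lyz2* stood at 0.877, *Mrc1* at 0.755, *Csf1r* at 0.796 and *Cd68* at 0.745.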

How the data were processed

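RNA of sorted PCs and VMs was amplified from low input and sequenced as 50 bp read pairs. Per the labels, the authors aligned reads with STAR 2.5.0c to mm10 with the GRCm38.74 annotation and counted pairs per gene with HTSeq 0.6.0. The deposited values are these raw counts, not normalized, 1 file per library. Groups and replicate numbers followed the sample titles. The source names number WT libraries 1, 3 and 4.

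Analyses used R 4.3.3 with edgeR 4.0.16 (TMM on all genes, mean normalized count above 5 over the libraries compared, quasi-likelihood test, Benjamini-Hochberg adjustment over all genes tested, threshold 0.05) and, as an alternative, DESeq2 1.42.0. Pairwise fits took 6 libraries, the others 12. Two-sided exact permutation tests used 20 or 400 relabellings of log2(normalized count + 2). A count of 3 was the floor. The edgeR fits were tested on simulated data, with changes planted only in genes of higher mean count than most members, so low counts were not covered.

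The members and lists were chosen with earlier results of these data known, and lists were written by hand. All 10 members were named in every comparison, from other lists the genes with an adjusted p under 0.05 or else the 2 most abundant, and 8 genes by likeness to C1q. Transcript lengths came from GENCODE M21 and promoters from RefSeq. Alternatives were DESeq2 and its size factors, no filter or filterByExpr, omission of mitochondrial genes, thinning, a replicate block, 1 fit of all libraries, and omission of each library. Depth limits low genes: with 1532393 to 6761356 counts outside the mitochondrial genome, several members had under 10 counts, and intervals cover counting error only. Some genes of the marker lists are not reported here.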

Additional observations from a re-analysis of the deposited data

How the results depend on the processing

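Members called between PCs and VMs over both genotypes numbered 4, against 8 with DESeq2, 8 without a filter on low counts, 3 without mitochondrial genes, 3 after thinning, 3 with a replicate block, and 0 to 7 when each library was left out. In WT, 0 became 3 with DESeq2, 3 without a filter and 0 to 1 on omission of a library. In KO, 1 became 5 without a filter, 2 with filterByExpr, 2 after thinning to the smallest library, 0 in 1 fit of all 12 libraries (7 of 7 tested members at an unadjusted p under 0.05) and 0 to 3 on omission of a library. Shares of all genes called under the alternatives are not reported here, so these counts are not set against other genes. No member was called under any alternative run in the 2 genotype comparisons or their difference. In all 3 comparisons of PCs with VMs every member tested had a positive fold change under every alternative run.

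The PC to VM ratio of summed member counts was 4.31 in WT, 3.01 to 5.47 on omission of a library. In KO it was 5.21, 5.90 as a share of all counts and 3.75 to 6.80 on omission of a library. Without *Lyz2* and *Cd74* it was 4.01 and 5.10.

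Signs turned only among uncalled genotype effects. With a replicate block, *Ptprc* in VMs was at -0.13 (0.08 without it), and the difference of genotype effects turned to -0.0079 for *C1qb* and -0.039 for *Lyz2* with DESeq2, and to -0.012 and -0.036 with its size factors. On omission of a library, log2 fold changes in PCs ran from -0.61 to 0.46 for *Csf1r*, -0.45 to 0.71 for *Adgre1*, -1.27 to 0.056 for *C1qb* and -0.99 to 0.047 for *Lyz2*, and in VMs from -0.10 to 0.67 for *Ptprc*. Differences of effects ran from -1.11 to 0.52 for *Ptprc*, -0.011 to 0.83 for *Mrc1*, -1.52 to 0.17 for *C1qc*, -0.55 to 0.99 for *C1qb* and -0.54 to 0.76 for *Lyz2*.

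The labels tie same-numbered libraries to no shared heart or day, and they were not treated as pairs. Deviations of same-numbered PC and VM libraries correlated over 8100 genes at 0.207, 0.0813 and 0.150 in WT and -0.00956, 0.121 and 0.0185 in KO. Every WT library correlated best with its own number, and not every KO library did. With the block, 3 members were called over both genotypes, 0 in WT and 1 in KO. With 3 libraries a group and under 10 counts for several members, depth limits these values, and the cause of the shifts was not tested. Pooled ratios of *Cd68* and *C1qa* without single libraries, and r with C1q without WT PC replicate 2, were added after seeing the data.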
